A study of Mus musculus with 2 samples.

Results

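The CXC chemokines Cxcl1, Cxcl2, Cxcl3, Cxcl5, Cxcl9, Cxcl10, Cxcl12, Cxcl13, Cxcl14 and Cxcl16 were followed through the cell types of the mouse abdominal aorta. They were taken by gene symbol and are 10 of the 33696 genes listed in each of 2 single-cell RNA libraries. One library came from Control mice given Normal saline, and the other from mice given angiotensin II and a high-salt drink (AngII+HS). The AngII+HS mice received 1500 ng/kg/min of AngII from an osmotic minipump and drank water with 0.9% NaCl and 0.2% KCl for 28 days, a treatment used to induce abdominal aortic aneurysm. All mice were male C57BL/6J, 5 months old, with no transgene or targeted allele named. Tissue of 5 mice per condition was pooled by the design text, while the extract protocol speaks of 1 Control and 2 AngII+HS mice, and the libraries cannot be split by mouse.

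CXC chemokines are small secreted proteins that guide leukocytes, which sense them through G protein-coupled receptors. Cxcl1, Cxcl2, Cxcl3 and Cxcl5 act on Cxcr2 and draw neutrophils, and are induced by interleukin-1, tumour necrosis factor and NF-kB. Cxcl9 and Cxcl10 are induced by interferons and draw activated T cells through Cxcr3. Cxcl12 retains leukocytes and progenitors through Cxcr4 and is scavenged by Ackr3, Cxcl13 draws B cells through Cxcr5, Cxcl14 is a homeostatic chemokine of connective tissue and epithelium, and Cxcl16 is a membrane-bound ligand of Cxcr6 on T cells. In arteries, these genes are known from inflamed endothelium, adventitial fibroblasts and infiltrating myeloid cells.

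Members with the same receptor lie close together, though genes other than the members were not placed. On GRCm39, Cxcl5, Cxcl3, Cxcl1 and Cxcl2 lie in this order on the plus strand of chromosome 5 between positions 90907186 and 91053797. Among the members, Cxcl1 (91039094 to 91040974) is the nearest to Cxcl2 (91051730 to 91053797). Cxcl9 (92469206 to 92475945) and Cxcl10 (92494497 to 92496748) form a second pair on the minus strand of the same chromosome, and Cxcl13 lies at 96104810 to 96108927. Cxcl12 is on chromosome 6 (117144945 to 117158328, plus strand), Cxcl14 on chromosome 13 (56436352 to 56444603, minus strand) and Cxcl16 on chromosome 11 (70344517 to 70352620, minus strand).

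Promoters of inducible members in which a motif was found are printed, because the text below sets these genes beside NF-kB and interferon response genes. Each line is 60 bases, 5′ to 3′ on the gene's own strand, from the RefSeq promoter table on build GRCm38.p6, with a motif match on either strand in capitals. The first 3 lines run from position -110 to -51 before the annotated start and mark a kB-like motif, GGG and TTTCC with any 2 bases between them. The line for Cxcl10 runs from -230 to -171 and marks an interferon-response-like motif, GAAA repeated after any 2 bases.
Cxcl1, plus strand, chr5:90891135-90891194: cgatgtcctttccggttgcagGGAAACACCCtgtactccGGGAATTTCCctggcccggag
Cxcl2, plus strand, chr5:90903789-90903848: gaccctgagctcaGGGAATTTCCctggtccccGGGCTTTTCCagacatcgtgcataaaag
Cxcl3, plus strand, chr5:90785991-90786050: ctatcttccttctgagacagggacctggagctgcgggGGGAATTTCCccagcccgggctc
Cxcl10, minus strand, chr5:92349060-92349119: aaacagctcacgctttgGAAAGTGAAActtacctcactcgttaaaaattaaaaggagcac
Of the 10 members, 8 had an entry in that table, and Cxcl5 and Cxcl16 had none. The kB-like motif was found within 250 bases before the start in 3 of those 8 (Cxcl1, Cxcl2 and Cxcl3) and in 378 of 27025 promoters in all (1.40%). The interferon-response-like motif was found in Cxcl10 and Cxcl14 and in 821 of 27025 promoters (3.04%). Neither motif was found in Cxcl9, whose promoter is not printed. A match of letters is a description and not a shown binding site.

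The libraries held 11448 (Control) and 24804 (AngII+HS) barcodes with 86618995 and 117146856 UMIs. After quality filters and removal of doublets, 10269 and 19734 cells remained, with a median of 7265 and 3069.5 UMIs per cell. The cells formed 24 clusters, 22 of which were named from their markers as fibroblast-like, vascular smooth muscle-like, macrophage-like, neutrophil-like, vascular endothelial-like and so on. They are called fibroblasts, VSMCs, macrophages, neutrophils, VECs, LECs (lymphatic endothelial cells), T cells, B cells, plasma cells, dendritic cells (DCs), neural cells and erythroid cells from here on. The 5 fibroblast, 5 macrophage and 5 neutrophil markers were each highest in their own type in both libraries, as were 4 of 5 VEC markers in Control and 3 of 5 in AngII+HS. Of 4 VSMC markers only Cnn1 was highest in VSMCs of Control. The chemokines themselves were kept out of the genes used for clustering. The makeup of the libraries differed widely: Control held 4818 VSMCs, 503 macrophages and 99 neutrophils, and AngII+HS held 652, 4503 and 4647. Fibroblasts numbered 2608 and 4735, and VECs 837 and 1231. Each condition is 1 library, so no difference between conditions has a replicate check and no p-value is given. All intervals are exact 95% intervals (Poisson for levels, binomial for shares, conditional for ratios) and cover counting error only.

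A level is given in CPM, the UMIs of the gene in all cells of a type scaled to a common total of UMIs. Free RNA in the cell suspension is captured with every cell, so each level was set beside that of the lymphocytes, the T and B cells (232 in Control and 2111 in AngII+HS), from its own library. Cell types differ in depth, and no allowance for that was made when levels were compared with or reduced by the lymphocyte level. Free RNA itself was not measured, and the lymphocyte level was not told apart from expression or doublets in those cells. Part of the chemokine signal sits in those lymphocytes. Cxcl2 measured 75.8 CPM in T and B cells of Control and 442 CPM in those of AngII+HS, Cxcl1 17.7 and 92.9 CPM, Cxcl3 3.12 and 41.2 CPM, and Cxcl10 5.19 and 55.03 CPM. The other 6 members stayed at or below 24.3 CPM there.

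Summed over all cells, 9 of the 10 members were at least 2-fold higher in the AngII+HS library, beside 20.5% of the 20360 genes with at least 20 UMIs. Cxcl13 was the exception, at a log2 ratio (AngII+HS over Control) of 0.63. That sum moves with the number of cells of each type, and the levels within a type gave a different picture. In the type with the largest share of its UMIs averaged over the libraries, only Cxcl3, Cxcl5 and Cxcl14 were at least 2-fold higher in AngII+HS, and the other 7 of 10 members differed by less. With TMM scaling the count was 5, as Cxcl12 in fibroblasts (1.07) and Cxcl16 in macrophages (1.03) joined. TMM scaling shifts every gene of a type alike, and the share of all genes was not counted with it. For Cxcl9 the type with the largest share was the VECs, and in fibroblasts, its first source in AngII+HS, the log2 ratio was 3.40. Within fibroblasts 5 of 10 members were at least 2-fold higher (background 8.02% of genes) and none was 2-fold lower (8.09%). One of the 5, Cxcl3, did not exceed the lymphocyte level. Within VECs it was 6 of the 9 members measured (background 8.45%), with none lower (5.74%), though Cxcl3 and Cxcl5 did not exceed the lymphocyte level in VECs of AngII+HS. Another of the 6, Cxcl13, had no UMI in Control VECs and so no finite ratio, and stood 3.10 CPM above lymphocytes in AngII+HS. Within macrophages it was 4 of 10 (background 11.4%), again with none lower (18.1%). One of the 4, Cxcl5, had no UMI in Control macrophages. All 6 members measured in T cells (background 11.2%) and all 6 in B cells (background 12.4%) were also at least 2-fold higher. These cells are not a known source of most of them. In neutrophils the 6 members with any UMI in the 99 Control cells were at least 2-fold higher, beside a background of 34.9% of genes, which includes genes at 0 in Control. The other 4 (Cxcl5, Cxcl9, Cxcl13 and Cxcl14) had 0 Control UMIs and stayed under 11.04 CPM, the level of 3 Control UMIs, in AngII+HS.

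**Figure D1:**
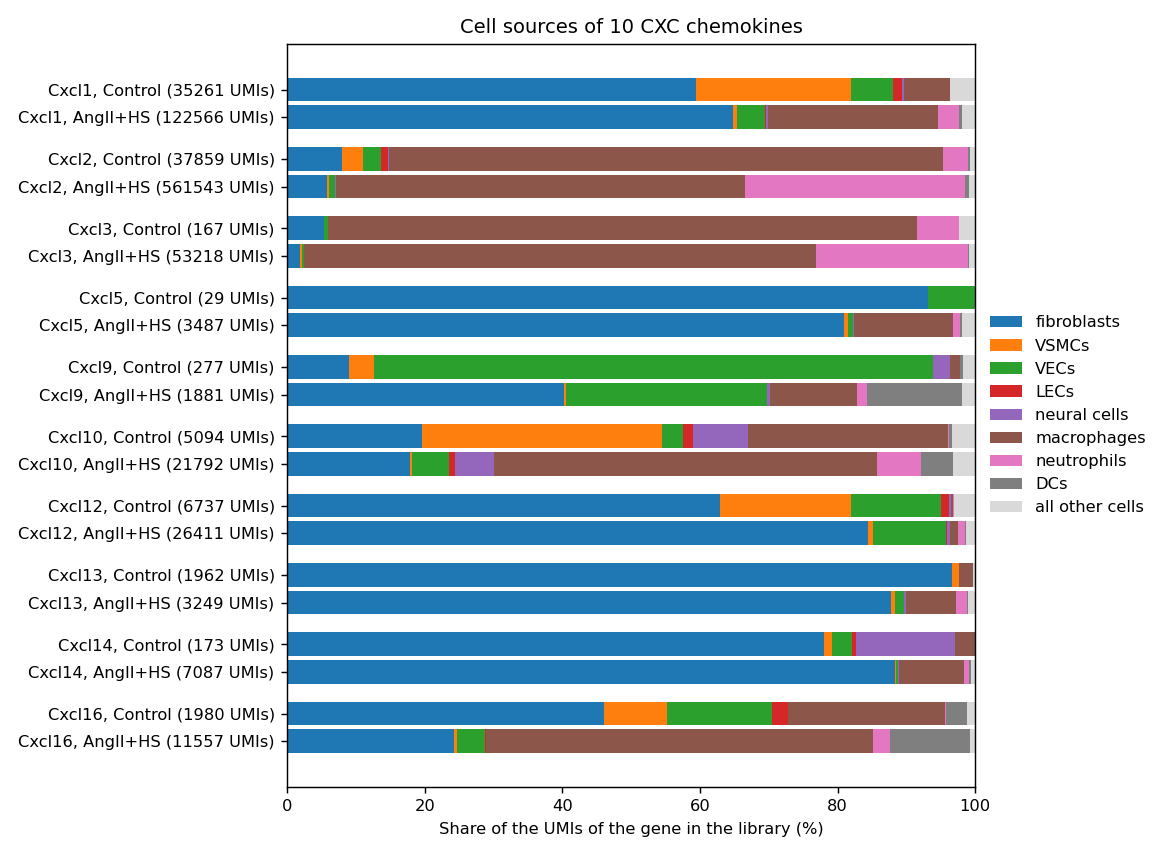
Share of the UMIs of each CXC chemokine held by each cell type, in percent of all UMIs of that gene in a library (stacked bars, 1 bar per gene and library). Fibroblasts hold most Cxcl1, Cxcl5, Cxcl12, Cxcl13 and Cxcl14 in both libraries, macrophages hold most Cxcl2 and Cxcl3, and Cxcl9, Cxcl10 and Cxcl16 have a different first source in each library.

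**Figure D2:**
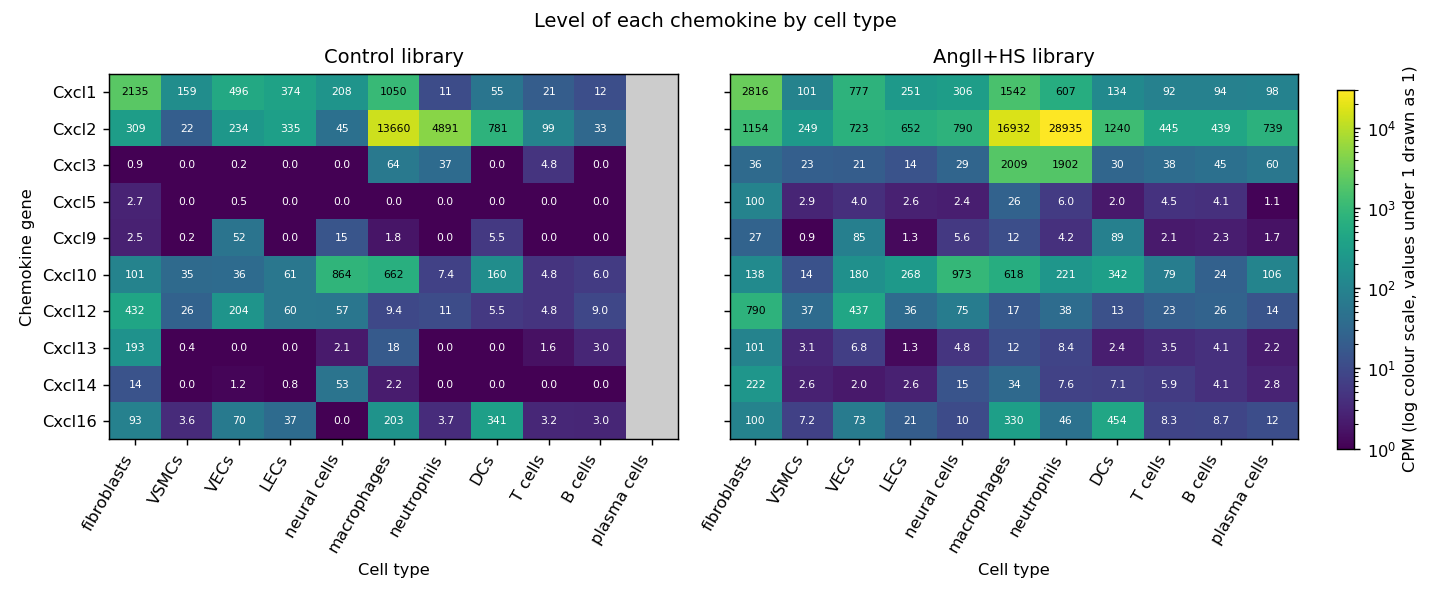
Level of each CXC chemokine (rows) in each cell type (columns) in the Control and the AngII+HS library, in CPM on a log colour scale. Cxcl2 is highest in macrophages of Control (13660 CPM) and in neutrophils of AngII+HS (28935 CPM), and Cxcl1 is highest in fibroblasts of both (2135 and 2816 CPM).

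Cxcl1 was mainly a fibroblast transcript. Fibroblasts held 59.5% of its 35261 UMIs in Control and 64.8% of 122566 in AngII+HS. Their level was 2135 CPM (2106 to 2164) in Control and 2816 CPM (2796 to 2835) in AngII+HS, a log2 ratio of 0.40 (0.38 to 0.42). The share of fibroblasts with a Cxcl1 UMI was 62.2% and 79.8%, and 52.0% and 63.4% among the 2152 and 4576 fibroblasts that could be thinned to 1000 UMIs (shallower cells left out, here and below), far above the thinned 2.18% and 9.64% of T and B cells. The second source differed between the libraries. In Control it was the VSMCs, with 22.6% of the UMIs spread over 4818 cells at 159 CPM, and in AngII+HS it was the macrophages, with 24.8% at 1542 CPM.

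Cxcl1 in VECs stood at 496 CPM (475 to 517) in Control and 777 CPM (755 to 799) in AngII+HS, a log2 ratio of 0.65 (0.57 to 0.72). Macrophages were of the same order in ratio, with 1050 CPM (1008 to 1093) and 1542 CPM (1525 to 1560) and a log2 ratio of 0.55. VSMCs and LECs went the other way. In VSMCs the level was 159 CPM in Control and 101 CPM in AngII+HS (log2 ratio -0.65, -0.78 to -0.53), the latter close to the 92.9 CPM of lymphocytes. In LECs it was 374 and 251 CPM (log2 ratio -0.58, -0.83 to -0.33). Neutrophils had 11.04 CPM from 3 UMIs in Control and 607 CPM (588 to 627) in AngII+HS.

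Cxcl2 was mainly a macrophage transcript in Control and a macrophage and neutrophil transcript in AngII+HS. Macrophages held 80.6% of its 37859 UMIs in Control and 59.3% of 561543 in AngII+HS, and neutrophils held 3.51% and 32.0%. In macrophages the level was 13660 CPM (13507 to 13814) in Control and 16932 CPM (16875 to 16990) in AngII+HS, a log2 ratio of 0.31 (0.29 to 0.33). In neutrophils it was 4891 CPM (4632 to 5162) and 28935 CPM (28802 to 29070), a log2 ratio of 2.56 (2.49 to 2.64). Nearly every macrophage and neutrophil of AngII+HS carried the transcript, 96.8% and 99.3%, with 81.7% and 82.8% in Control. Beside these cells, fibroblasts (8.03% and 5.80%) and VECs (2.66% and 0.828%) were small sources.

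The macrophages compared were not of the same kind. In Control 345 of 503 macrophages were in a subcluster led by Lyve1 and Cd163, genes of resident macrophages, and in AngII+HS the largest subcluster was led by Vcan and Chil3, genes of monocyte-derived cells (1455 of 4503, and 42 in Control). Within the Lyve1/Cd163 subcluster, Cxcl2 was 16864 CPM in Control and 19051 CPM in AngII+HS. Within the Vcan/Chil3 subcluster it was 4496 CPM (4273 to 4729) and 26848 CPM (26722 to 26975), and these cells held 51.9% of the macrophage Cxcl2 of AngII+HS. The subcluster led by Gpnmb and Mmp12 ran lower, at 10529 and 9696 CPM. Neutrophils shared no subcluster between the libraries, since all 99 Control neutrophils were in one led by Ngp and Ly6g, which encode a granule protein and a surface antigen of neutrophils. The 3 largest AngII+HS subclusters, led by Sh2d3c, Mir155hg and Ifit3, had 29710, 28223 and 30427 CPM of Cxcl2, close to each other.

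Cxcl2 in fibroblasts was 309 CPM (299 to 321, 3039 UMIs) in Control and 1154 CPM (1142 to 1167, 32567 UMIs) in AngII+HS, a log2 ratio of 1.90 (1.85 to 1.95). The share of fibroblasts with a Cxcl2 UMI was 21.2% and 76.1%, and 13.7% and 40.3% after thinning to 1000 UMIs per cell. T and B cells, which are not a known source, reached 10.8% and 61.8%, or 5.24% and 34.9% after thinning, at median depths of 4446 and 2331 UMIs for T cells against 3189.5 and 5114 for fibroblasts. The fibroblast level stood above that of lymphocytes in both libraries, by 234 CPM (211 to 254) in Control and by 712 CPM (690 to 734) in AngII+HS. With the lymphocyte level subtracted the log2 ratio was 1.61.

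Several fibroblast subclusters carried Cxcl2. The 6 described here with at least 20 cells in both libraries had a higher total level in AngII+HS, as had the lymphocytes. The largest, led by Apod and C7, measured 318 CPM in Control and 1441 CPM in AngII+HS. The one led by Thbs2 and Col11a1 had 268 and 1087 CPM, the one led by Lsamp and Lamc3 388 and 703 CPM, and the Pi16/Dpp4 subcluster, led by Cd55 and Sema3e, 468 and 916 CPM. These 4, and the Rbp4/Plac9 cells with 252 and 540 CPM, were above the lymphocyte level in both libraries. Above that level, the Apod/C7 cells had 242 and 999 CPM, the Thbs2/Col11a1 cells 192 and 645 CPM and the Pi16/Dpp4 cells 392 and 474 CPM, the last with overlapping intervals (348 to 437 and 392 to 561). The Lsamp/Lamc3 cells, with 312 and 261 CPM, and the Rbp4/Plac9 cells, with 176 and 98.3 CPM, were lower in AngII+HS by this measure. The Notch3/Rgs5 subcluster, at 72.9 and 331 CPM, did not exceed it in either. A subcluster led by Mmp13 and Saa3 was present in AngII+HS alone (476 cells, 0 in Control) and had 1434 CPM. The highest level, 3424 CPM (3319 to 3532), was in 150 AngII+HS cells led by Acod1, S100a9, S100a8 and Il1b, genes of neutrophils and activated myeloid cells; these cells held 12.2% of the fibroblast Cxcl2, and without them and the Notch3/Rgs5 cells the log2 ratio was 1.81.

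Cxcl2 in VECs was 234 CPM (219 to 249, 1007 UMIs) in Control and 723 CPM (703 to 744, 4651 UMIs) in AngII+HS, a log2 ratio of 1.63 (1.53 to 1.73). The share of VECs with a UMI was 23.3% and 69.9%. After thinning it was 9.70% in Control, above the 5.24% of lymphocytes, and 34.1% in AngII+HS, no higher than their 34.9%, so the AngII+HS share was not read as expression and only the levels were compared. The level of VECs stood above that of lymphocytes by 158 CPM (134 to 180) in Control and by 281 CPM (253 to 309) in AngII+HS, and the log2 ratio with the lymphocyte level subtracted was 0.83. The summed level of 4 neutrophil genes (S100a8, S100a9, Csf3r and Retnlg) also moved with the library, with 11.1 CPM in Control and 195 CPM in AngII+HS in VECs, and 8.55 and 185 CPM in fibroblasts. All 4 were higher in AngII+HS in both types, S100a9 the most abundant with 104.4 and 96.2 CPM, and their part in the Cxcl2 level was not tested. At the neutrophils' own proportion of Cxcl2 to these genes, that signal corresponds to 125 CPM of Cxcl2 in VECs and 118 CPM in fibroblasts of AngII+HS. Among cells with no UMI of S100a8 or S100a9, Cxcl2 was 230 and 591 CPM in VECs (log2 ratio 1.36) and 313 and 1038 CPM in fibroblasts (log2 ratio 1.73). Both measures follow neutrophil genes and were not made for RNA or doublets from macrophages, the largest source of Cxcl2.

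Cxcl2 was concentrated in an arterial subcluster of VECs led by Cish, Sdc4 and Gadd45b. These cells numbered 107 in Control and 113 in AngII+HS and held 57.6% and 42.4% of the VEC Cxcl2. Their level was 555 CPM (510 to 602) in Control and 1981 CPM (1894 to 2070) in AngII+HS, which is 479 and 1539 CPM above lymphocytes. The 3 other largest subclusters were far lower in AngII+HS, with 548 CPM in the arterial cells led by Ptprj, 522 CPM in the venous cells led by Csf3 and Ackr1 and 450 CPM in the capillary cells led by Lpl. In Control these had 50.9, 182 and 220 CPM. Relative to lymphocytes, the Ptprj cells stood at -24.9 CPM (-47.8 to -3.07) in Control and 106 CPM (57.5 to 158) in AngII+HS. The Lpl cells stood at 145 CPM (105 to 187) and 7.94 CPM (-30.3 to 47.6), and the Csf3/Ackr1 cells at 106 and 79.6 CPM. All VECs but the Cish/Sdc4 cells stood above lymphocytes by 54.97 CPM (32.0 to 75.9) in Control and by 51.2 CPM (24.9 to 77.5) in AngII+HS. These intervals overlap, but the pooled value combined opposite differences in the Ptprj and Lpl cells. Cish and Gadd45b are genes of the cytokine and stress response, and this subcluster was also the highest in Cxcl1, with 1045 and 2002 CPM.

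In LECs, Cxcl2 was 335 CPM in Control and 652 CPM in AngII+HS, and its excess over lymphocytes was 259 CPM (222 to 297) and 210 CPM (152 to 273). VSMCs had 22.0 and 249 CPM, below lymphocytes in both libraries. That does not exclude expression, since VSMCs were deeper, with a median of 9941 and 8754 UMIs against 4446 and 2331 in T cells. The top 10% of VSMCs held 91.4% and 53.7% of their Cxcl2. In neural cells the level was 44.6 CPM in Control, below that of lymphocytes, and 790 CPM in AngII+HS, 348 CPM (296 to 403) above it. A single neural cell of AngII+HS held 12.3% of these UMIs, and the top 10% of cells held 66.0%. The neutrophil gene S100a9 was 187 CPM in neural cells of AngII+HS, against 118 CPM in T cells and 117 CPM in B cells. The part of neutrophil RNA in the neural Cxcl2 was not tested.

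**Figure D3:**
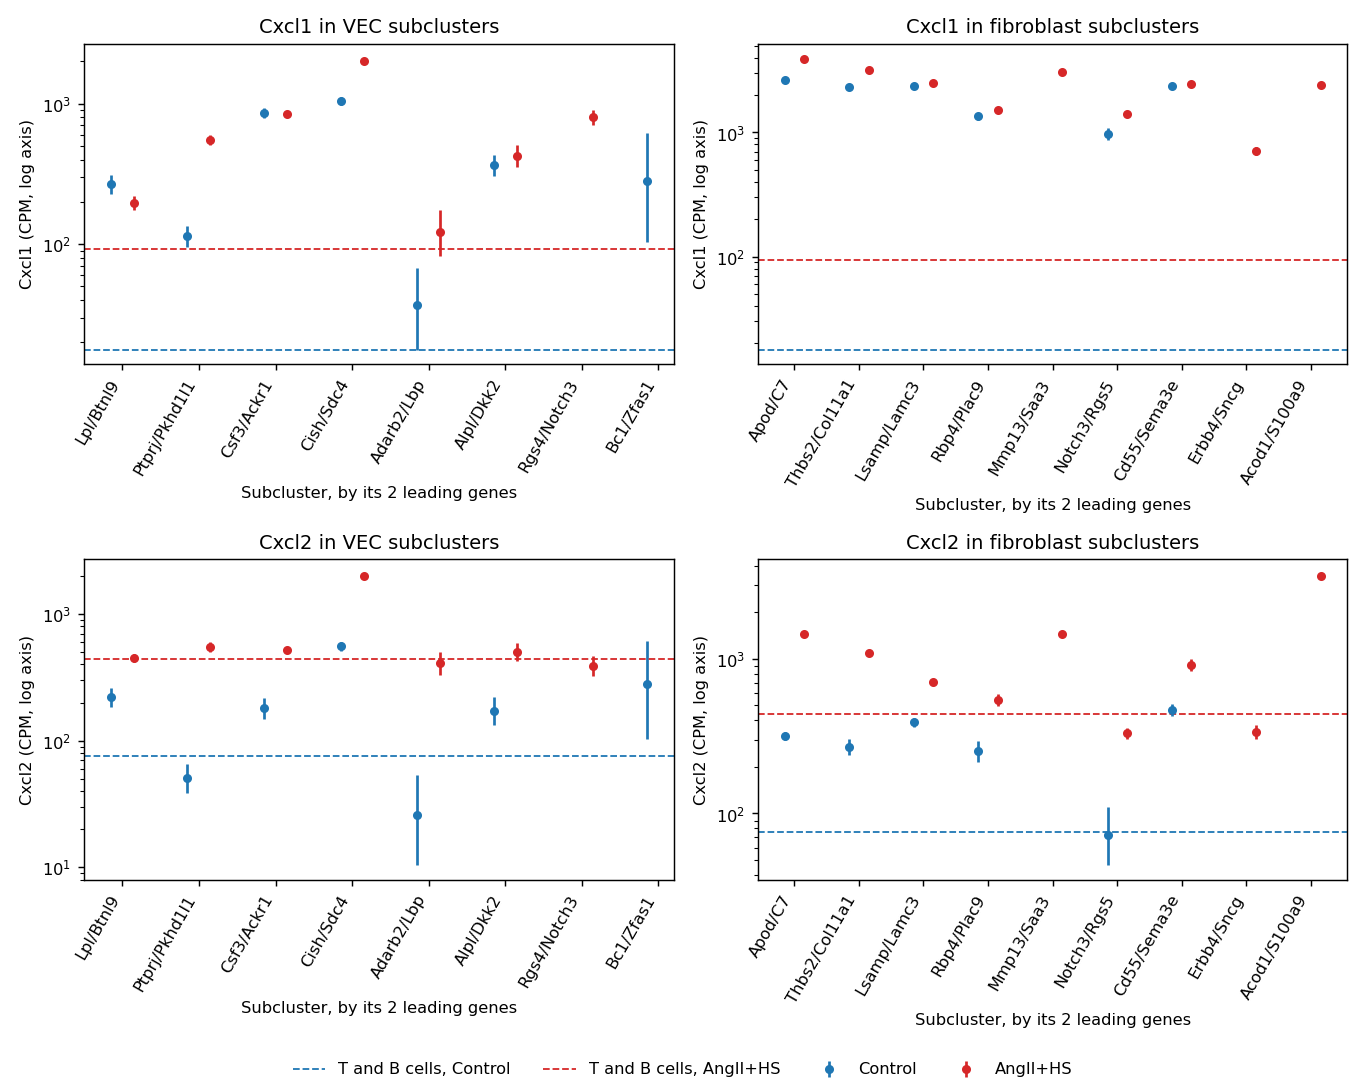
Cxcl1 and Cxcl2 levels (CPM, log axis) in the subclusters of VECs and of fibroblasts in Control and AngII+HS, with 95% Poisson intervals; dashed lines mark the level in lymphocytes of each library, and subclusters with under 20 cells in a library are not drawn. The Cish/Sdc4 VECs stand highest among VECs for Cxcl2 (555 and 1981 CPM), and the Notch3/Rgs5 fibroblasts lie under the dashed line of their library for Cxcl2.

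Cells with a Cxcl1 UMI more often had one of Cxcl2, counted in cells thinned to 1000 UMIs. In Control fibroblasts Cxcl2 was found in 22.1% of cells with Cxcl1 and in 4.46% of those without. In AngII+HS the shares were 48.1% and 26.7%. VECs gave 28.4% and 5.67% in Control and 46.2% and 29.2% in AngII+HS, where the cells without Cxcl1 were close to or below the 34.9% of lymphocytes. The top 10% of VECs held 86.7% of their Cxcl2 in Control and 64.0% in AngII+HS, whereas the top 10% of macrophages held 35.7% and 34.8%.

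Summed over all cells, Cxcl3 had the widest difference of the 10 members between the libraries, with a log2 ratio of 8.22. It had 167 UMIs in all of Control and 53218 in AngII+HS. Macrophages held 85.6% and 74.3% of them and neutrophils 5.99% and 22.2%. The level was 64.0 CPM (53.9 to 75.4) and 2009 CPM (1989 to 2029) in macrophages, a log2 ratio of 4.97 (4.74 to 5.22), and 36.8 and 1902 CPM in neutrophils, where Control had 10 UMIs. Within the Vcan/Chil3 macrophages the values were 202 and 4954 CPM, and these cells held 80.8% of the macrophage Cxcl3 of AngII+HS. The Lyve1/Cd163 macrophages, at 35.8 and 97.3 CPM, stayed low in both libraries. Fibroblasts (36.0 CPM) and VECs (20.5 CPM) of AngII+HS did not exceed the 41.2 CPM of lymphocytes. Of macrophages with Cxcl2, 4.90% in Control and 43.5% in AngII+HS also had Cxcl3 after thinning.

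Cxcl5, a further Cxcr2 ligand, was a fibroblast transcript of the AngII+HS library. Fibroblasts had 2.75 CPM (1.81 to 4.00, 27 UMIs) in Control and 100.1 CPM (96.4 to 103.8, 2824 UMIs) in AngII+HS, a log2 ratio of 5.19 (4.64 to 5.79). They held 93.1% and 81.0% of its UMIs. The transcript was confined to few cells, 0.537% of fibroblasts in Control and 7.81% in AngII+HS. The Mmp13/Saa3 subcluster, with no Control cells, held 75.2% of the fibroblast Cxcl5 at 366 CPM, and the Apod/C7 subcluster, present in both libraries, had 3.17 and 78.6 CPM. Macrophages had 0 UMIs in Control, where 3 UMIs would be 1.34 CPM, and 25.6 CPM in AngII+HS, most of it in the Vcan/Chil3 (58.3%) and Ppbp/Hmox1 (30.6%) subclusters.

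Cxcl9 and Cxcl10, the pair on the minus strand of chromosome 5, had partly different cell sources. Cxcl9 was sparse, with 277 UMIs in Control and 1881 in AngII+HS. In Control VECs held 81.2% of it, and in AngII+HS fibroblasts held 40.3%, VECs 29.2%, DCs 13.9% and macrophages 12.7%. The VEC level was 52.2 CPM (45.6 to 59.5) and 85.4 CPM (78.4 to 92.8), a log2 ratio of 0.71 (0.48 to 0.94). The endothelial cells that held it differed between the libraries. Capillary cells led by Lpl had 81.8% of the VEC Cxcl9 in Control at 284 CPM and 22.8% in AngII+HS at 83.3 CPM, while the arterial cells led by Ptprj had 207 CPM and 37.3% in AngII+HS. A single VEC held 27.6% of the VEC Cxcl9 of Control and another 16.2% of that of AngII+HS.

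Fibroblast Cxcl9 was 2.55 CPM (1.65 to 3.76) in Control and 26.9 CPM (24.98 to 28.8) in AngII+HS, with 63.3% of the latter in the Mmp13/Saa3 cells. In DCs it was 5.50 CPM from 1 Control cell and 88.8 CPM in AngII+HS, where a single DC held 37.8% of the UMIs. Cxcl9 was detected in under 3% of fibroblasts of either library (0.537% and 2.96%), so its source there was a small number of cells.

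Cxcl10 had 5094 UMIs in Control and 21792 in AngII+HS. Its first source in Control was the VSMCs (35.0%), ahead of macrophages (29.1%) and fibroblasts (19.5%), but macrophages came first with double the number of doublets left out and fibroblasts without integration. In AngII+HS it was the macrophages (55.8%), ahead of fibroblasts (17.8%). Per cell type, macrophages had nearly the same level in both libraries, 662 CPM (629 to 697) and 618 CPM (607 to 629), a log2 ratio of -0.10 (-0.18 to -0.02). The pooled value hid a difference within the type: the Lyve1/Cd163 macrophages had 854 CPM in Control and 1530 CPM in AngII+HS, and the Vcan/Chil3 macrophages 157 and 385 CPM. Neural cells had 864 and 973 CPM (log2 ratio 0.17, 0.01 to 0.34) and were the highest type in both libraries.

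Cxcl10 in VECs was 36.4 CPM (31.0 to 42.6) in Control and 180 CPM (170 to 191) in AngII+HS, a log2 ratio of 2.31 (2.06 to 2.56). The venous cells led by Csf3 and Ackr1 held 42.7% and 67.1% of it, at 109 and 371 CPM. They numbered 100 of 837 VECs in Control and 266 of 1231 in AngII+HS. The pooled VEC ratio therefore also moves with the makeup of the VECs. LECs had 60.8 and 268 CPM (log2 ratio 2.14). Fibroblasts had 101 and 138 CPM (log2 ratio 0.44, 0.34 to 0.54). Their excess over lymphocytes went the other way, with 96.1 CPM (86.8 to 103.5) in Control and 82.5 CPM (74.5 to 90.2) in AngII+HS. These intervals overlap and the subtraction made no allowance for cell depth, so the direction in fibroblasts is not settled. VSMCs had 35.5 CPM in Control and 13.6 CPM in AngII+HS (log2 ratio -1.39, -1.73 to -1.06), the latter below the 55.03 CPM of lymphocytes. In AngII+HS neutrophils, 50.1% of Cxcl10 was in the Ifit3/Ifit1 subcluster, at 1193 CPM against 97.0 CPM in the largest subcluster.

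**Figure D4:**
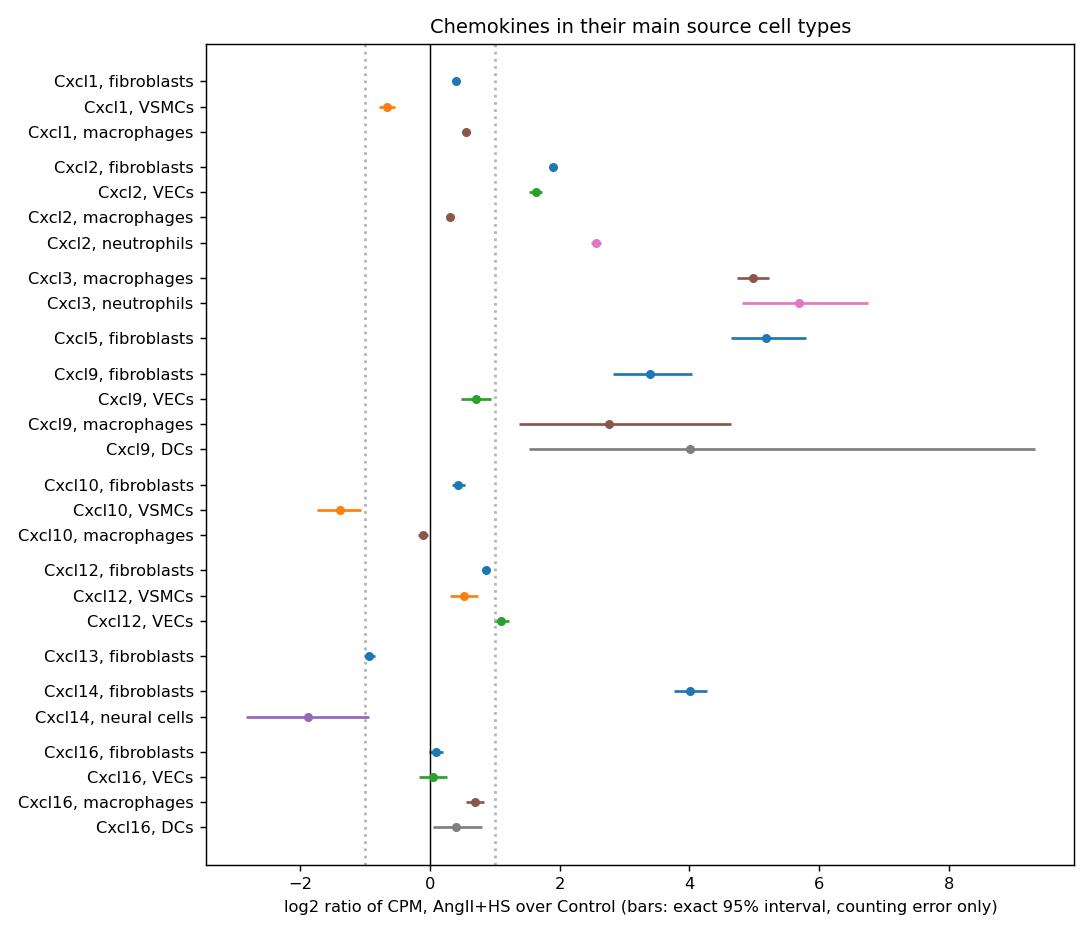
Log2 ratio of the level in AngII+HS over Control for each CXC chemokine in its main source cell types, with 95% conditional intervals that cover counting error only; dotted lines mark a 2-fold difference. Cxcl3 in macrophages (4.97), Cxcl5 in fibroblasts (5.19) and Cxcl14 in fibroblasts (4.01) lie far to the right, while Cxcl10 in macrophages (-0.10) and Cxcl16 in fibroblasts (0.10) lie near 0.

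Cxcl12, the ligand of Cxcr4, came mainly from fibroblasts in both libraries. Fibroblasts held 62.9% of its 6737 UMIs in Control and 84.4% of 26411 in AngII+HS, VECs 13.03% and 10.7%, and VSMCs 19.1% and 0.814%. The fibroblast level was 432 CPM (419 to 445) and 790 CPM (779 to 800), a log2 ratio of 0.87 (0.82 to 0.92). VECs had 204 CPM (191 to 218) and 437 CPM (421 to 454), a log2 ratio of 1.10 (0.99 to 1.21). Among VECs the capillary cells led by Lpl stood highest with 783 and 995 CPM and held 57.9% and 53.0%. They numbered 141 of 837 VECs in Control and 438 of 1231 in AngII+HS, so the pooled VEC ratio also moves with this makeup. Among fibroblasts the Apod/C7 cells had 657 and 1062 CPM. VSMCs had 25.6 and 36.9 CPM. Cxcl12 in macrophages, 9.40 and 17.0 CPM, was close to or below the 6.23 and 24.3 CPM of lymphocytes.

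Cxcl13 was a fibroblast transcript in both libraries, at a lower level in AngII+HS. Fibroblasts held 96.6% of 1962 UMIs and 87.8% of 3249. Their level was 193 CPM (185 to 202) in Control and 101 CPM (97.4 to 104.8) in AngII+HS, a log2 ratio of -0.93 (-1.02 to -0.85). It was -0.37 with no doublets removed and -0.24 with equal weight per cell. Without thinning, the share of fibroblasts with a UMI was 5.33% and 5.13%, at median depths of 3189.5 UMIs in Control and 5114 in AngII+HS. Shares move with depth, so these do not show that as many cells carried the transcript. The Apod/C7 fibroblasts held 83.8% and 62.7% of the fibroblast Cxcl13 at 503 and 286 CPM, whereas the Pi16/Dpp4 fibroblasts had 262 CPM in Control and 741 CPM in AngII+HS. The largest value in a single fibroblast was 115 UMIs in Control and 139 in AngII+HS, so rare cells carried a high level. In the Lyve1/Cd163 macrophages Cxcl13 was 22.8 and 53.2 CPM.

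Cxcl14 was a fibroblast transcript, with 13.7 CPM (11.5 to 16.3, 135 UMIs) in Control and 222 CPM (216 to 227, 6259 UMIs) in AngII+HS, a log2 ratio of 4.01 (3.77 to 4.27). Fibroblasts held 78.0% and 88.3% of its UMIs, and 1.65% and 14.0% of them had a UMI. In Control 88.9% of the fibroblast Cxcl14 was in the Apod/C7 cells at 38.0 CPM, which had 221 CPM in AngII+HS. The Mmp13/Saa3 cells held 66.8% in AngII+HS at 720 CPM. Neural cells counted as a source in Control (14.5% of the UMIs) only because 1 cell of 149 had all 25 UMIs.

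Cxcl16 had several sources. In Control fibroblasts held 46.1% of its 1980 UMIs, macrophages 22.9% and VECs 15.3%. In AngII+HS macrophages held 56.2% of 11557, fibroblasts 24.3% and DCs 11.6%. Per cell type it was steady in fibroblasts, with 93.0 and 99.5 CPM (log2 ratio 0.10, -0.01 to 0.21), and in VECs, with 70.1 and 72.6 CPM (log2 ratio 0.05, -0.16 to 0.27). Both intervals include no difference and stay well inside 2-fold. Macrophages had 203 CPM (185 to 223) and 330 CPM (322 to 338), a log2 ratio of 0.70, and DCs 341 and 454 CPM. Macrophages led by Irf7 (612 CPM) and Gpnmb (531 CPM in Control, 554 in AngII+HS) were the highest. Within VECs the arterial Cish/Sdc4 cells had 109 and 207 CPM and the venous Csf3 cells 146 and 37.2 CPM, so the steady VEC level combined opposite differences.

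The unnamed cluster led by Pln, a calcium pump inhibitor of contractile cells, differed from the VSMCs. All 8 chemokines that passed the 20-UMI filter were at least 2-fold higher in AngII+HS (background 9.79%). Cxcl5 had no Control UMI and so no finite ratio, and the log2 ratio of Cxcl3, 7.66, had a wide interval (5.14 to 12.99). Apart from Cxcl2, the members were not set beside the lymphocyte level in this cluster, so the count is not a count of expressed members. Cxcl1 was 243 CPM there in Control and 1087 CPM in AngII+HS (log2 ratio 2.16, 2.05 to 2.27), and Cxcl12 41.3 and 128 CPM. Its Cxcl2, at 29.4 and 513 CPM, was below lymphocytes in Control and close to their level in AngII+HS. In VSMCs 4 of 7 members were at least 2-fold higher (background 5.9%), but none of the 4 (Cxcl2, Cxcl3, Cxcl13 and Cxcl16) exceeded the lymphocyte level of AngII+HS. One of the 7, Cxcl10, was at least 2-fold lower, as were 2009 of 15411 genes.

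The receptors were spread over leukocytes and stroma. Cxcr2, the receptor of Cxcl1, Cxcl2, Cxcl3 and Cxcl5, was found on neutrophils, in AngII+HS also a source of Cxcl2, at 456 CPM in Control and 294 CPM in AngII+HS, and Cxcr1 there at 36.8 and 11.1 CPM. Cxcr3 on T cells was sparse, 19.1 and 35.8 CPM. Cxcr4 was broad, with 111 and 222 CPM in macrophages, 372 and 513 CPM in neutrophils and 242 and 223 CPM in B cells. Cxcr5 was a B cell transcript (284 and 254 CPM) and Cxcr6 a T cell transcript (232 and 260 CPM). The scavenger Ackr3 of fibroblasts was 484 CPM in Control and 204 CPM in AngII+HS (log2 ratio -1.24), and that of VECs 235 and 74.7 CPM (log2 ratio -1.66). Ackr1, a decoy receptor of venous endothelium, was 29.0 and 172 CPM in VECs. Summed over all cells, 7 of the 8 receptors were at least 2-fold higher in AngII+HS (20.5% of all genes), with Ackr3 the exception at a log2 ratio of -0.09. This sum also moves with the number of cells of each type.

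**Figure D5:**
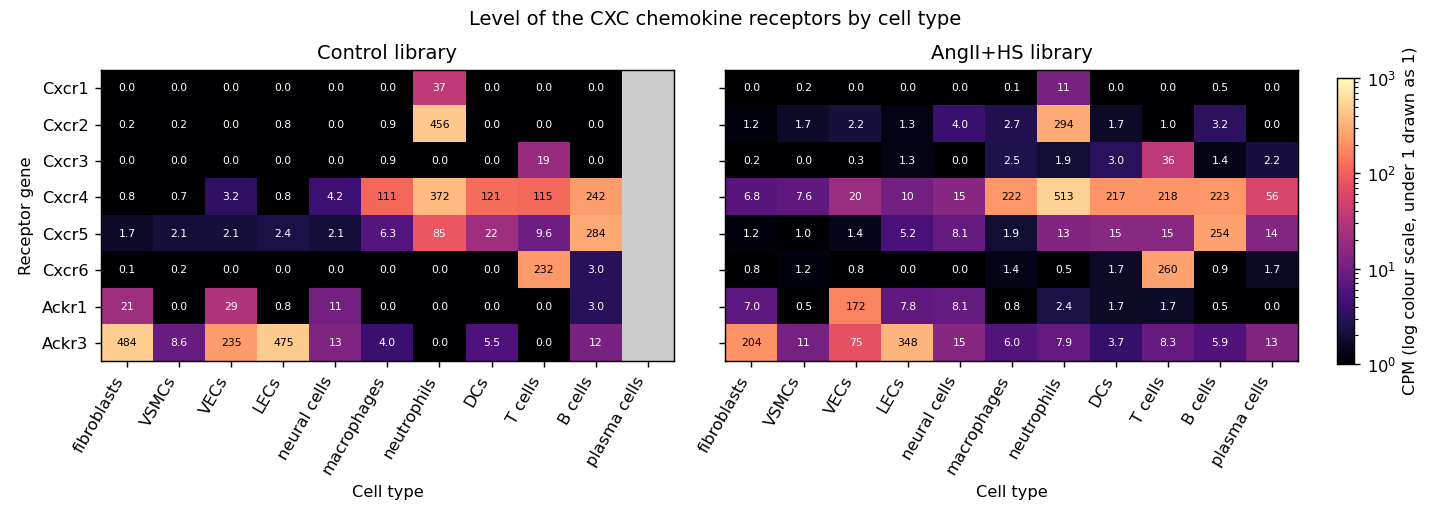
Level of the CXC receptors and the decoys Ackr1 and Ackr3 (rows) by cell type (columns) in each library, in CPM on a log colour scale. Cxcr2 marks neutrophils (456 and 294 CPM), Cxcr5 B cells (284 and 254 CPM), Cxcr6 T cells (232 and 260 CPM), and Ackr3 fibroblasts, VECs and LECs.

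Of the 12 inducing cytokines and their receptors, 9 were at least 2-fold higher over all cells of AngII+HS (20.5% of all genes). That sum too moves with the number of cells of each type. Il1b was 534 CPM in Control macrophages and 3222 CPM in those of AngII+HS, and 4652 and 6057 CPM in neutrophils. Tnf was 1318 and 1054 CPM in macrophages and 622 and 2367 CPM in neutrophils. Ifng in T cells was 14.3 and 194 CPM. The interleukin-1 receptor Il1r1 was level in fibroblasts, with 354 and 346 CPM, and was 115 and 210 CPM in VECs.

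Among the response genes of these cytokines, those of NF-kB differed little in fibroblasts. Of 6 NF-kB feedback genes (Nfkbia, Nfkbiz, Tnfaip3, Zfp36, Socs3 and Icam1), none was at least 2-fold higher or lower in fibroblasts (median log2 ratio -0.13, against -0.14 over all genes there). Over all genes of fibroblasts 8.02% were at least 2-fold higher and 8.09% lower. In VECs 1 of the 6 was higher (Tnfaip3, 110 and 244 CPM) and 1 lower (Zfp36), with a median of -0.37. Over all genes of VECs these shares were 8.45% and 5.74%. In macrophages 1 of 6 was higher (Nfkbia, 1563 and 3161 CPM), beside 11.4% of all genes there. Neutrophils differed more, with 3 of 6 at least 2-fold higher, beside 34.9% of all genes there. The summed level of the 6 genes in neutrophils was 7711 CPM in Control, from 99 cells, and 19630 CPM in AngII+HS. The 6 interferon response genes had a median of 0.90 in fibroblasts, 0.40 in VECs and 0.83 in macrophages. At least 2-fold higher were 1 of 6 in fibroblasts (8.02% of all genes), none in VECs (8.45%) and 3 of 6 in macrophages (11.4%). For the 5 of these genes measured in neutrophils the median was 1.496, with 3 at least 2-fold higher, beside 34.9% of all genes. Of 8 immediate early genes, known to be induced when tissue is dissociated, none was 2-fold different in fibroblasts (median -0.11) or neutrophils (median 0.67). At least 2-fold lower were 2 of these genes in VECs (median -0.73, 5.74% of all genes) and 4 in macrophages (median -1.06, 18.1% of all genes). In neutrophils 10.4% of all genes were at least 2-fold lower. The part of the immediate early genes in the chemokine levels was not tested.

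The genes most like each member over 22 points (cell types with at least 50 cells in a library) were described by Pearson's correlation of log2(CPM + 5) among 14583 genes. Cxcl2 ran with Cd14 (r = 0.93), Ccl6 and Il1a (0.92 each), and Cxcl3 with Il1a (0.94), Il1rn and Ccl6 (0.87 each). Cxcl10 ran with Ifit1 (0.93), Apoe (0.85) and Ifit2 (0.84). For Cxcl1 the highest were Mcfd2, Cd302 and Igf1 (0.85, 0.85 and 0.82), and for Cxcl5 Serpinb2 (0.89), Gm6093 (0.86) and Kng1 (0.83). Cxcl12 ran with Pcdh19, Bnc2 and Bace2 (0.90, 0.90 and 0.89), Cxcl13 with Ildr2, Ndufa4l2 and Angptl7 (0.92, 0.91 and 0.91), and Cxcl14 with Ctsk, Col14a1 and Gm36107 (0.84, 0.81 and 0.81). Cxcl9 had Zfp366, Batf2 and Rgs12 (0.84, 0.77 and 0.75) and Cxcl16 Zmynd15, Nostrin and Pltp (0.88, 0.86 and 0.86). The points of a library share its free RNA and depth. Each r is among the highest of 14583 over 22 points, and the height that selection alone would give was not tested. For a member that is high in few points, such as Cxcl5, r rests on those points.

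The other CXC ligands listed in the matrices were Pf4, Ppbp, Cxcl11, Cxcl15 and Cxcl17. All 5 were at least 2-fold higher over all cells of AngII+HS (20.5% of all genes), a sum that moves with the number of cells of each type. In fibroblasts, Cxcl11 was 1.22 CPM in Control and 1.13 CPM in AngII+HS. Pf4, a platelet chemokine also made by macrophages, was 1109 CPM in Control macrophages and 2188 CPM in those of AngII+HS. Ppbp was 1.79 and 215 CPM there. Cxcl11, the third ligand of Cxcr3, had 51 UMIs in all of Control and 222 in AngII+HS. Cxcl15 and Cxcl17 stayed under 1 CPM over all cells of either library.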

How the data were processed

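Single-cell libraries of abdominal aorta (10x 3′ chemistry) from 1 Control and 1 AngII+HS pool were analysed from the deposited matrices of UMI counts, which the authors made with Cell Ranger (version 8.0.1 in the matrix header). The study's methods name GRCm39 and the submitters' processing notes name mm10. Gene positions came from the GENCODE annotation of GRCm39, where 98.5% of the 33696 feature identifiers were found, and promoters from RefSeq GRCm38.p6.

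Counts were taken by the recorded sample of each matrix. The barcode lists were not used, since the one recorded for Control has 24804 lines and the one for AngII+HS 11448, each the size of the other matrix. If the matrices themselves were exchanged, every direction would reverse. The lists share 67 barcodes (0.270% and 0.585%).

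Barcodes had to reach 500 UMIs and 200 genes and to stay below 20% of mitochondrial transcripts. The cells with the highest Scrublet scores (scanpy 1.11.5) were removed at 0.8% per 1000 cells, which was 1019 (9.03%) and 4826 (19.6%). Libraries were integrated and clustered in Seurat 5.3.0 (R 4.3.3) with 2000 variable genes without the members, 30 components and resolution 0.8. VECs, fibroblasts, macrophages and neutrophils were reclustered with 20 components at 0.4. Names required markers listed for each type, and 2 clusters, led by Pln and by Fgf14, stayed unnamed. One fibroblast subcluster is not reported here. All 10 members were described in every type, and the leading type is the one with the largest mean share of UMIs over the libraries. A main source holds at least 10%. Ratios, intervals and shares used scipy 1.17.1. Ratio intervals were run on simulated Poisson counts, which checks the calculation only, since real UMIs of a gene are clumped in single cells. The members and lists were chosen with earlier results of these data known. Alternatives changed doublet removal, cell filter, integration, resolution, clustering genes, weighting, scaling (including TMM factors, edgeR 4.0.16) and free RNA. The last subtracted the lymphocyte level, taken to stand for free RNA.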

Additional observations from a re-analysis of the deposited data

Results flagged for a closer look

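Cxcl10 went in opposite directions in cell types that were main sources. The log2 ratio of AngII+HS over Control was 0.44 in fibroblasts, with -1.39 in VSMCs and -0.10 in macrophages, and the difference between types was not tested. With the lymphocyte level subtracted, fibroblasts too were lower in AngII+HS, with 96.1 CPM in Control and 82.5 CPM in AngII+HS. Median depth was 3189.5 and 5114 UMIs in fibroblasts but 4446 and 2331 in T cells. The subtraction made no allowance for depth, so it cannot settle the direction in fibroblasts. The VSMC level in AngII+HS (13.6 CPM) was below that of T and B cells of the library, and the macrophage value was 0.52 in the merged analysis without integration and 0.23 with TMM factors. Cxcl14 had a log2 ratio of 4.01 in fibroblasts and -1.87 in neural cells, again with no test of the difference, and the neural value rests on 1 Control cell with 25 UMIs.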

How the results depend on the processing

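No paired analysis was possible because each condition is 1 library, and for the same reason no replicate could be left out. Of 140 values of 12 ratios under the alternatives, 85 moved by less than their counting interval, 53 moved by more and 2 changed sign, both for Cxcl10 in macrophages (0.52 without integration and 0.23 with TMM factors, against -0.10). For Cxcl2 in VECs (1.63) the log2 ratio was 2.93 with no doublets removed, 1.35 with double the number left out, 2.10 with equal weight per cell, 0.83 with free RNA subtracted and 1.36 among cells with no UMI of S100a8 or S100a9, the last chosen after seeing the data. For Cxcl2 in fibroblasts (1.90) it was 2.14 with no doublets removed, 1.77 with equal weight per cell, 2.10 with TMM factors, 1.61 with free RNA subtracted, and, as settings chosen after seeing the data, 1.73 without S100a8 or S100a9 UMIs and 1.81 without subclusters led by markers of another type. The causes of these shifts were not tested. TMM factors raised log2 ratios by 0.20 in fibroblasts, 0.33 in macrophages and 0.35 in DCs and lowered them by 0.01 in VECs. With them 5 of 10 members, not 3, were at least 2-fold higher in the leading type. The share of all genes was not counted with these factors, so the count of 5 has no background beside it. The direction of the other ratios held under every alternative run: Cxcl13 in fibroblasts ranged from -0.998 (resolution 1.2) to -0.24 (equal weight per cell), with -0.37 when no doublets were removed, Cxcl5 from 3.57 to 5.53, Cxcl14 from 2.90 to 4.32 and Cxcl3 in macrophages from 3.78 to 5.39. The first source of each member in each library was the same in all 20 cases except under double doublet removal (18 of 20; Cxcl9 in AngII+HS became VECs and Cxcl10 in Control macrophages) and without integration (19 of 20; Cxcl10 in Control became fibroblasts). The share of cells with a UMI was higher in AngII+HS for 8 of 10 members in their leading type, with and without thinning. No such count was made over all genes, so it is not read as a trait of the members. The 99 Control neutrophils limit every neutrophil ratio.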
